A study of Mus musculus with 14 samples.

Results

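The comparison of Dp(16)1Yey/+ mice with their wild-type littermates comprised 8 of the 14 RNA-seq libraries of the study, 4 of each genotype, chosen by the genotype in the sample labels. Dp(16)1Yey/+ mice, whose full name is Dp(16Lipi-Zfp295)1Yey, carry a duplication of the part of mouse chromosome 16 from Lipi to Zfp295 (now Zbtb21), so that each gene of the interval is present in 3 copies in place of 2. The methods name C57BL6 for wild-type mice. All 8 libraries came from hippocampus dissected from genotyped embryos at E16 to E18, without any treatment. The sources do not say how many litters were used, which embryos shared one, or whether each library came from 1 embryo, so the p-values measure the spread between these libraries. Replicate numbers follow the labels and begin at 0.

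The distal part of mouse chromosome 16 holds the largest block of genes whose human counterparts lie on chromosome 21, and this duplication is a standard mouse model of Down syndrome. Genes present in an extra copy usually give proportionally more RNA, unless feedback, RNA turnover or the makeup of the tissue offsets it. The interval contains the amyloid precursor gene App, the kinase gene Dyrk1a, most interferon receptor genes, and genes for protein folding, mitochondria, chromatin and the synapse. The hippocampus at this age holds dividing progenitors, young pyramidal neurons and the first granule cells, while synapses are only beginning to form.

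Each value is the number of sequenced fragments of a locus divided by 1 size factor for its library, so that 1 unit is close to 1 fragment. The libraries held between 21294870 and 25043369 fragments in Dp(16)1Yey/+ mice and between 22141492 and 24002007 in the littermates. Levels are not divided by gene length and are compared here only within a gene. Fold changes are differences of log2(value + 1), which understates the change of genes with few fragments, and are given ± SE from limma. A test was made at each of 36024 loci with a mean of at least 10 units.

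Several features of the libraries bear on every result. Across 19563 loci with a mean of at least 100, which are not independent replicates, log2 values of littermate replicates 0 and 1 correlated at 0.996 and those of littermate replicates 2 and 3 at 0.995, against 0.939 to 0.946 between the pairs. Chi-square values per degree of freedom, where 1 stands for sampling noise alone, were 1.55 and 2.72 within the pairs and 37.6 to 43.1 between them, so the littermates of a pair were not identical but far closer than those of different pairs. Dp(16)1Yey replicate 0 was closest to littermate replicates 2 and 3 (0.984 with each), and Dp(16)1Yey replicate 2 to littermate replicates 0 and 1 (0.987 and 0.988). The highest correlation of Dp(16)1Yey replicate 1 with any library was 0.957 and that of replicate 3 was 0.960. Xist is transcribed from the inactive X chromosome, and Ddx3y lies on the Y chromosome. Xist had 4489, 16645, 20962 and 16743 units in Dp(16)1Yey replicates 0 to 3 and 4224, 4096, 13165 and 14803 in the littermates. Ddx3y had 1213, 942.7, 607.2 and 917.8 against 1412, 1465, 581.8 and 597.6 units. RNA of both sexes was thus found in every library, and both genes differed between the littermate pairs. The part of sex in the differences between libraries, and the number of embryos per library, was not tested. Markers of the labelled tissue were measured in all 8 libraries, with Prox1, a transcription factor of granule cells, at 161 to 856 units and Zbtb20, a transcription factor of hippocampal neurons, at 1789 to 7734. Both had their lowest value in Dp(16)1Yey replicate 1. The hippocampal markers Lef1 and Emx2 did not, with 153 and 274 units in that library. Lef1 was lowest in Dp(16)1Yey replicate 0 (116 units) and Emx2 in Dp(16)1Yey replicate 3 (236.5 units). Dp(16)1Yey replicate 1 also had the highest values of embryonic globin Hbb-y (5846 units, against 1.98 to 237 elsewhere) and of skeletal muscle myosin Myh3 (182 units, against 4.32 to 38.2).

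The extra dose of the interval was first examined in each Dp(16)1Yey/+ library by itself. Against littermate replicates 0 and 1, the median log2 difference of the 89 tested genes of the interval was 0.82 in Dp(16)1Yey replicate 0, 0.13 in replicate 1, 0.66 in replicate 2 and 0.48 in replicate 3. Against littermate replicates 2 and 3 it was 0.59, 0.06, 0.43 and 0.24. Since whole libraries were shifted, the median of all other named genes was taken off. The interval then stood 0.55 to 0.62 above the other genes in replicates 0, 2 and 3 against either pair, near the value of 0.585 that 3 copies in place of 2 would give, and 0.07 or 0.18 above them in replicate 1. Genes above all 4 littermate libraries were also counted. In replicate 0 they were 75 of the 89 genes, 84.3% of the interval against 32.7% of the other named genes. In replicate 2 they were 66 (74.2% against 20.97%) and in replicate 3 they were 54 (60.7% against 11.0%). In replicate 1 they were 35, 39.3% of the interval against 32.0% of the other named genes. Next to the proximal end of the interval, between Robo2 and Lipi in the order of the gene table, the unnamed locus XLOC_021478 had 642, 0, 408 and 437 units in Dp(16)1Yey replicates 0 to 3 and at most 1.98 units in the littermates. In these measures the library labelled Dp(16)1Yey replicate 1 lay near the littermates. It was kept under its label, and the counts for the interval and for most gene lists with members at an unadjusted p under 0.05 are given with and without it.

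**Figure D1:**
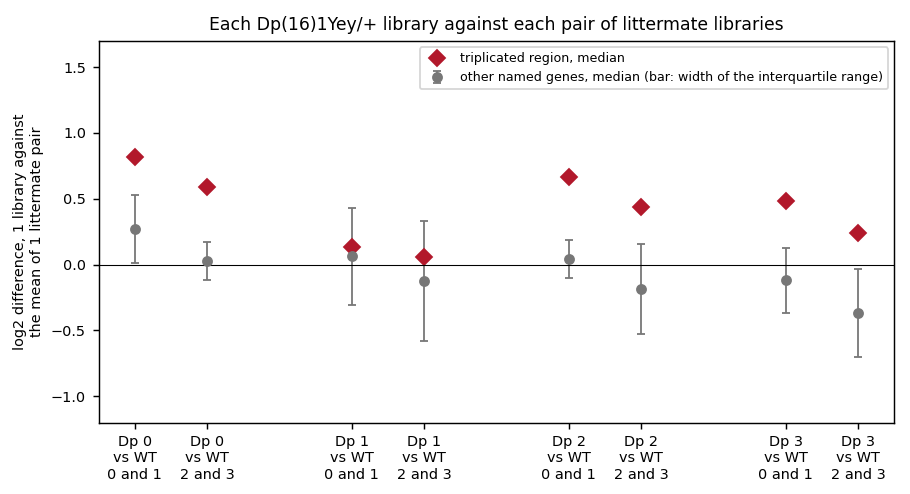
Median log2 difference of 1 Dp(16)1Yey/+ library (Dp 0 to Dp 3) from the mean of 1 littermate pair (WT 0 and 1, or WT 2 and 3) for the 89 tested genes of the triplicated region (diamonds) and the other named genes (circles, with a bar as long as their interquartile range, centred on the median). The diamonds stand 0.55 to 0.62 above the circles for Dp 0, Dp 2 and Dp 3, and 0.07 or 0.18 above them for Dp 1.

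Over all loci no gene passed the threshold of an adjusted p of 0.05 in limma (0 of 36024), and the smallest adjusted p was 0.909. At an unadjusted p under 0.05, 616 loci were higher (1.71%) and 657 lower (1.82%) in Dp(16)1Yey/+ mice. edgeR called 0 genes (1321 at an unadjusted p under 0.05) and DESeq2 called 8. With each littermate pair averaged, 271 loci stood at an unadjusted p under 0.05 in limma. Named single genes therefore stand below at their unadjusted p, and the exact permutation p of 4 against 4 libraries cannot fall under 0.0286. Both p-values count the littermate libraries as 4 separate units. If the close libraries of a littermate pair are not independent, these p-values are too small, and the sources do not settle this.

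The table held 143 genes of the interval, which spans chr16:75540514-97962622 (mm10), and 89 of them, among them 81 protein-coding genes, reached a mean of 10. The other 54 had means of at most 8.43, 31 of them being listed at 0 in all 8 libraries. Lipi, a lipase gene at the proximal end, was among the 54, with at most 2.01 units. Of the tested genes, 78 were higher and 11 lower in Dp(16)1Yey/+ mice. Their median log2 fold change was 0.42, beside -0.05 for the other named genes, and of all loci 54.9% were higher. Most loci are unnamed, and of the 13841 other named genes 5791 were higher and 8050 lower. Counts of higher and lower genes in the lists below stand beside that lean. At an unadjusted p under 0.05, 38 tested genes of the interval were higher, against 1.71% of all loci, and 1 was lower. In 30 genes all 4 Dp(16)1Yey/+ libraries lay above all 4 littermate libraries, as they did in 1.72% of all loci. Without Dp(16)1Yey replicate 1, the median was 0.55, 54 genes were higher at an unadjusted p under 0.05 (1.18% of all loci), and the remaining 3 libraries lay above the littermates in 48 genes (2.56% of all loci) and below them in 1 (1.07% of all loci). The threshold was then passed by 0 genes of the interval and by 0.00833% of all loci, which are XLOC_021478 and its neighbours XLOC_021479 and XLOC_021481. All of these loci had at most 1.98 units in the littermates and passed the filter only through Dp(16)1Yey/+ libraries. Replicate 1 was left out after it was seen to lie near the littermates, so these rises are not independent evidence. With all libraries, unnamed loci numbered within the interval were also mostly higher (121 of 130, median 0.48). Zbtb21, a zinc finger gene at the distal end, shares its locus with Prdm15 and C2cd2, and this locus had 3359, 1819.5, 3134 and 2545 units in Dp(16)1Yey replicates 0 to 3 and 2216, 2279, 2201 and 2221 in the littermates (0.25 ± 0.19).

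Genes outside the borders of the duplication centred near 0. Along chromosome 16, the 345 tested genes more than 10 Mb before Lipi had a median log2 fold change of -0.03, and the 5 genes within 10 Mb before it had 0.04. Inside the interval the proximal, middle and distal parts of equal length had medians of 0.48 (13 genes), 0.51 (20 genes) and 0.40 (56 genes). By chromosome, the medians of named genes ranged from -0.11 on chromosome 11 to 0.05 on chromosome 13. The parts of human chromosome 21 whose mouse counterparts lie on chromosomes 10 and 17 are not duplicated in this line. Their genes had medians of -0.27 (27 genes, 4 higher, and -0.16 without Dp(16)1Yey replicate 1) and -0.10 (11 genes, 3 higher, and -0.21 to -0.01 with Dp(16)1Yey replicate 0 or littermate replicate 3 left out), with 0 genes at an unadjusted p under 0.05 in limma, beside 3.53% of all loci.

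**Figure D2:**
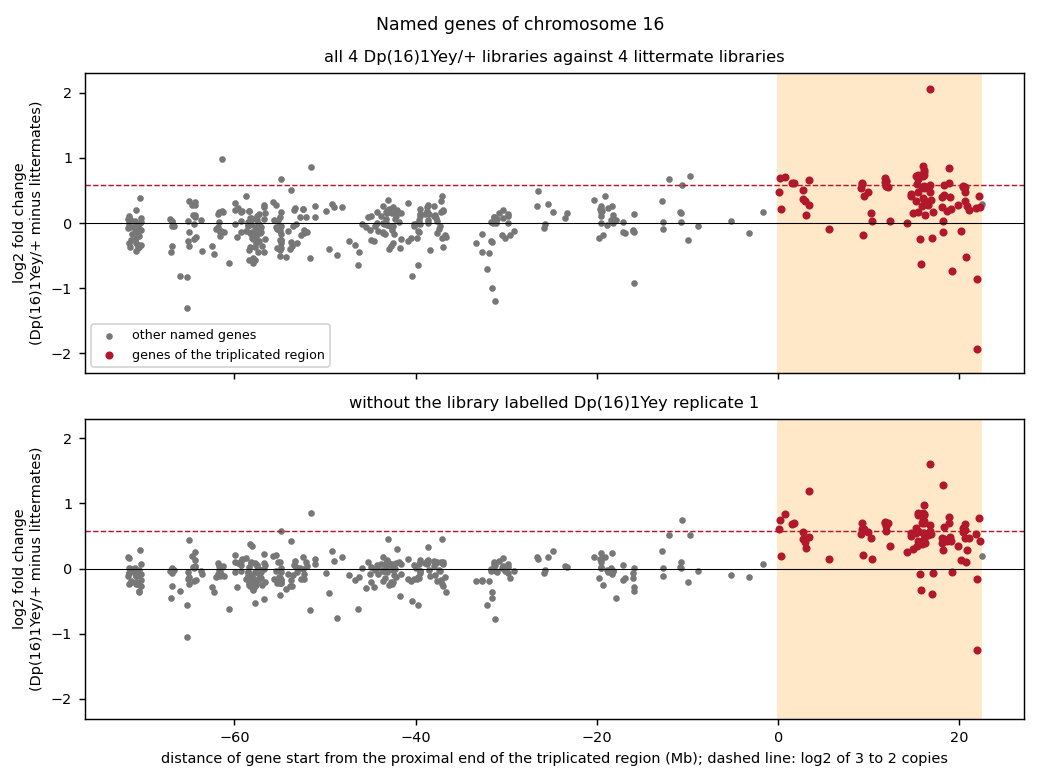
Log2 fold change of each named gene of chromosome 16 with a mean of at least 10, by the distance of its start from the proximal end of the triplicated region in Mb, over all 8 libraries (top) and with Dp(16)1Yey replicate 1 left out (bottom). Genes of the region (red, shaded) have medians of 0.42 and 0.55, and the genes to their left centre near 0.

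The genes grouped under protein folding and turnover had uniformly higher values. All 8 genes of this group were higher at an unadjusted p under 0.05 and had no overlap between the genotypes. Beside them stand 38 and 30 of the 89 genes of the interval and 1.71% and 1.72% of all loci. All 8 were also at that p with Dp(16)1Yey replicate 1 left out. They had a median log2 fold change of 0.64. The groups of genes named here and below were set by known role from the members of the interval, 58 of the 89 genes in 5 groups. They were chosen with earlier results of these data known, so their counts are not independent evidence. Hspa13, a microsomal Hsp70-like ATPase at chr16:75745431-75767104, had 3756, 3083, 3460.4 and 3634 units in Dp(16)1Yey replicates 0 to 3 and 1942, 2032, 2429 and 2204 in the littermates, which is a log2 fold change of 0.70 ± 0.14 (unadjusted p = 4.78e-04). Dnajc28, a J-domain protein (chr16:91614254-91619026), had 398, 335, 381 and 377 against 220.5, 219.7, 216 and 203 units, and its fold change was 0.79 ± 0.15. Both genes were higher in each Dp(16)1Yey/+ library than in any littermate, replicate 1 included (exact permutation p = 0.0286, the smallest possible). Cct8, a subunit of the cytosolic chaperonin that folds actin and tubulin (chr16:87483326-87495873), was measured at 9631, 9389, 9623 and 9419 units in Dp(16)1Yey/+ mice and at 5469, 5464, 6929 and 6589 in the littermates, a fold change of 0.65 ± 0.14. The Dp(16)1Yey/+ libraries were nearly level with each other, and the littermates were not. Ltn1, the ubiquitin ligase that clears peptides from stalled ribosomes, had a fold change of 0.63 ± 0.14, and the deubiquitinases Usp16 and Usp25 had 0.65 ± 0.14 and 0.62 ± 0.15. Ttc3, a ubiquitin ligase had 67457, 51308, 64885 and 59228 units against 35658, 35811, 43409 and 42876 (0.62 ± 0.15). Psmg1, which helps to assemble proteasomes, had 0.56 ± 0.18.

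The gene with the smallest p-value of the interval was Tmem50b, which encodes a membrane protein of the secretory pathway (chr16:91574503-91597800, minus strand). It had 1421, 1251, 1014 and 1181 units in Dp(16)1Yey/+ mice and 647, 621, 667 and 712 in the littermates, which is a log2 fold change of 0.87 ± 0.15 with an unadjusted p of 1.34e-04. The lowest Dp(16)1Yey/+ value was above the highest littermate value. Its DESeq2 adjusted p was 0.0162, and Dnajc28 and Usp16 passed in DESeq2 as well, at 0.0162 and 0.02. Cryzl1, a quinone oxidoreductase-like enzyme, had 0.74 ± 0.15, and Pigp, which acts in the first step of making GPI anchors, had 858, 1039, 898 and 1000.3 against 411, 468, 684 and 589 units (0.84 ± 0.19). In Pigp the littermates themselves were divided, with replicates 2 and 3 above replicates 0 and 1, yet all stayed under the Dp(16)1Yey/+ libraries.

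Mitochondrial and metabolic genes had shares near those of the whole interval. All 10 were higher and 5 were so at an unadjusted p under 0.05, beside 78 and 38 of the 89 genes and 1.71% of all loci for the latter, and without Dp(16)1Yey replicate 1 it was 8 of 10 (median with all libraries 0.42). Atp5j and Atp5o encode subunits of ATP synthase. Atp5j had 1592, 1521, 1452 and 1622 units against 882, 858, 1200.3 and 1168 (0.61 ± 0.16), and Atp5o had 5408, 5216, 4464 and 5481 against 2852, 2925, 4338 and 4016 (0.56 ± 0.18). The mitochondrial ribosomal protein gene Mrpl39 had 0.53 ± 0.16. For Sod1, the cytosolic superoxide dismutase, the fold change was 0.44 ± 0.17 and the groups overlapped, since littermate replicate 2 (2173 units) exceeded Dp(16)1Yey replicate 1 (2139 units). Gart, an enzyme of purine synthesis, had 0.35 ± 0.19 (unadjusted p = 0.101 in limma) with all libraries and 0.46 ± 0.19 (unadjusted p = 0.0414 in limma) without Dp(16)1Yey replicate 1. The locus of Mrps6 also covers Slc5a3, which encodes a myo-inositol transporter, so its 0.27 ± 0.23 belongs to both.

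Genes of chromatin, transcription and RNA formed the largest group, with 19 of 22 higher, 12 of them at an unadjusted p under 0.05, and a median of 0.51. These shares, too, were near those of the interval (78 and 38 of 89), beside 1.71% of all loci at that p. The count at that p was 15 of 22 without Dp(16)1Yey replicate 1. Brwd1, a bromodomain protein that reads acetylated histones, had 6034, 5124, 6146 and 6166 units in Dp(16)1Yey/+ mice against 3939.7, 3989, 3982 and 3899 in the littermates (0.57 ± 0.13). N6amt1, a methyltransferase of the translation release factor, had 304, 304, 371 and 310.0 against 181, 199, 203 and 212 (0.69 ± 0.15), again without overlap. Hmgn1, a nucleosome-binding protein, had 0.55 ± 0.14, and Chaf1b, a subunit of the histone chaperone CAF-1, had 0.59 ± 0.16. Son, which organises nuclear speckles and splicing, had 23112, 15647, 26625 and 23683 against 16939.5, 17166, 12698 and 12461 units (0.58 ± 0.20), and Dp(16)1Yey replicate 1 lay among the littermates. Bach1, a repressor of heme and oxidative stress genes, had 0.56 ± 0.19. For Gabpa, an ETS-family activator of housekeeping promoters, the locus also covers Jam2, an adhesion gene, and gave 0.61 ± 0.16. Exceptions were the oligodendrocyte lineage factors Olig1 (-0.63 ± 0.64) and Olig2 (-0.24 ± 0.52) and the ETS factor gene Ets2 (-0.12 ± 0.36). Olig1 ranged from 18.4 to 180.0 units within Dp(16)1Yey/+ mice and from 40.6 to 122 within the littermates, and the groups overlapped.

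Cytokine receptor genes lie side by side in the interval, and all 4 were higher, 2 of them at an unadjusted p under 0.05 (3 without Dp(16)1Yey replicate 1), beside 1.71% of all loci (1.18% without it). Ifngr2, a chain of the interferon gamma receptor, had 2524, 1916, 1655 and 2077 units against 996, 997, 1449 and 1537 (0.73 ± 0.20, unadjusted p = 0.00384). Ifnar2, a chain of the type I interferon receptor, had 665, 347, 484 and 421 against 304, 303, 340.0 and 319.5 (0.56 ± 0.20). Both were without overlap. Ifnar1, whose locus also covers a neighbouring RIKEN transcript, had 0.39 ± 0.20, and Il10rb, shared by receptors of interleukin 10 and interferon lambda, had 0.27 ± 0.23. Ifngr1, the partner of Ifngr2 that lies on another chromosome, had -0.11 ± 0.20. Genes that interferon induces were more often lower than higher, as were named genes outside the interval (5791 higher and 8050 lower). Of 16 tested interferon-stimulated genes 2 were higher, and the median was -0.24. Without Dp(16)1Yey replicate 1, 5 of 16 were higher, beside 4983 of 13807 named genes outside the interval. The list mean, relative to the littermate mean, was 0.38, -0.82, -0.85 and -0.24 in Dp(16)1Yey replicates 0 to 3. At an unadjusted p under 0.05 in limma, with and without replicate 1, 0 were higher and 1 was lower (1.82% and 0.825% of all loci were lower). That gene was Usp18, a brake on interferon signalling, with 43.5, 1.18, 4.08 and 14.1 units in Dp(16)1Yey/+ mice and 33.0, 29.7, 59.4 and 48.5 in the littermates (-2.18 ± 0.75, unadjusted p = 0.0136). Dp(16)1Yey replicate 0 was within the range of the littermates, and replicates 1, 2 and 3 were below it. The antiviral GTPase genes Mx1 and Mx2 lie inside the interval and are also interferon-stimulated. Mx1 was the only tested gene of the interval that was lower at an unadjusted p under 0.05, with 11.9, 0, 2.04 and 7.04 units against 13.4, 14.8, 15.1 and 17.2 (-1.93 ± 0.68, unadjusted p = 0.0152), with few fragments in every library. Its mean over the 8 libraries was 10.2. It passed the filter only through the littermate values, so its direction is not independent of the filter. All 4 Dp(16)1Yey/+ values of Mx1 were below all 4 littermate values, and replicate 0 was close to them. Mx2 had -0.85 ± 0.67.

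Neuronal genes of the interval had smaller differences and wider spreads. Of 14 genes for synapse, adhesion and neuronal signalling 11 were higher, 0 reached an unadjusted p under 0.05 in limma, and the median was 0.16. Without Dp(16)1Yey replicate 1 the median was 0.41, and 2 of the 14 reached that p, beside 1.18% of all loci. Dyrk1a (chr16:94570010-94695517), a kinase with dosage-sensitive roles in neurogenesis, had 4781, 2124, 3600.3 and 3044 units against 2488, 2397, 3171 and 3175, a log2 fold change of 0.22 ± 0.23 (exact permutation p = 0.486). Dp(16)1Yey replicate 0 was highest and replicate 1 lowest of all 8 libraries, and without replicate 1 the value was 0.43 ± 0.19. App (chr16:84949685-85173766), the precursor of amyloid beta, ranged from 1864 units in replicate 1 to 7841 in replicate 0, against 4391, 4155, 5094 and 5557 in the littermates, so the fold change of -0.18 ± 0.36 became 0.21 ± 0.24 when replicate 1 was left out. Kcnj6, which encodes the potassium channel GIRK2, had 85.0, 8.23, 36.7 and 68.4 against 45.3, 26.7, 111 and 108 units (-0.73 ± 0.66). The endocytic genes Synj1, a lipid phosphatase, and Itsn1, a scaffold, had 0.17 ± 0.25 and 0.12 ± 0.26, and 0.43 ± 0.19 and 0.39 ± 0.18 without replicate 1. The adhesion genes Dscam and Ncam2 had 0.20 ± 0.32 and -0.09 ± 0.26, the kainate receptor gene Grik1 had 0.04 ± 0.36, the Rac activator gene Tiam1 had 0.00 ± 0.32, and the calcineurin inhibitor gene Rcan1 had 0.35 ± 0.33. Dopey2, which acts in membrane traffic, had 1426, 326, 960.3 and 886 units against 752, 728, 940.2 and 1121 (-0.14 ± 0.37), with replicate 1 lowest and replicate 0 highest, and 0.29 ± 0.22 without replicate 1. Adamts5, a protease of the extracellular matrix, had 0.03 ± 0.25. The other genes of the interval with lower values were B3galt5, which adds galactose to glycans (-0.51 ± 0.53), and Clic6, a chloride channel-like gene whose locus also covers a RIKEN transcript (-0.23 ± 0.53).

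**Figure D3:**
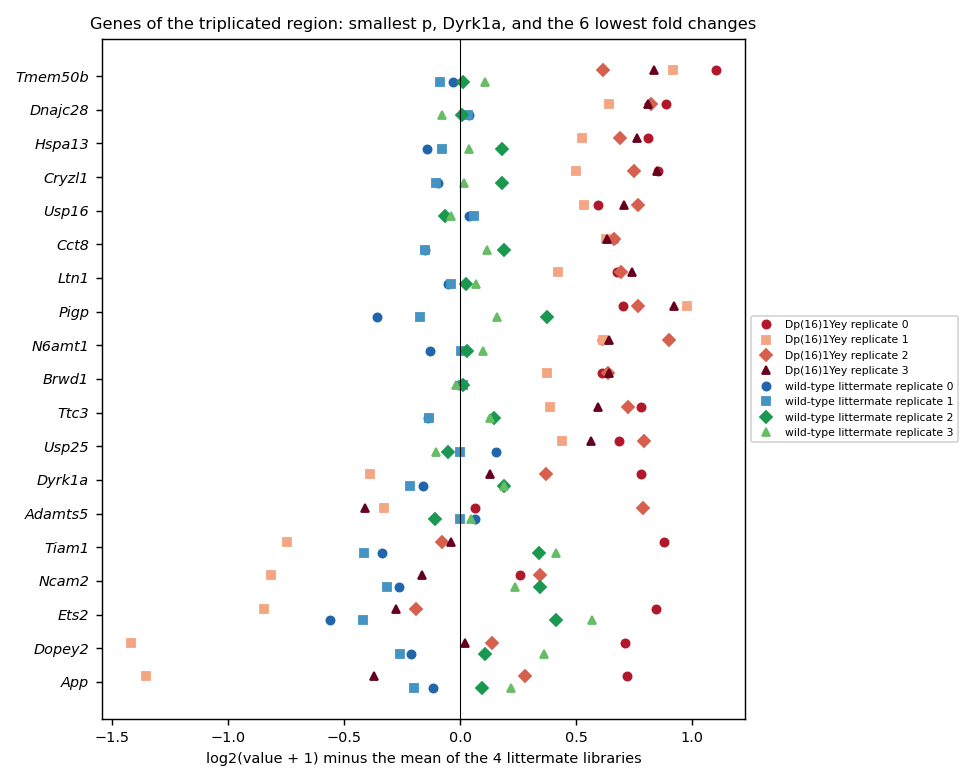
Log2(value + 1) of genes of the triplicated region in each library, minus the mean of the 4 littermate libraries: the 12 genes with the smallest p, Dyrk1a, and the 6 lowest fold changes among genes with a mean of at least 100. In the upper 12 genes every Dp(16)1Yey/+ library (red) lies right of every littermate library (blue and green), and in the lower 7 the groups overlap.

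The interval also carries regulatory RNAs. The long transcript 2810055G20Rik, known as Mir99ahg, spans chr16:77236317-77773427 on the plus strand and hosts 3 of the 7 miRNA genes that the RefSeq table lists in the interval. Their mature sequences (RefSeq, GRCm38.p6) are shown because the host is the part of these genes that the libraries measured. Capitals mark the seed, bases 2 to 8.
mmu-miR-99a-5p: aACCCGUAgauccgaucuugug
mmu-let-7c-5p: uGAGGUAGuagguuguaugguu
mmu-miR-125b-5p: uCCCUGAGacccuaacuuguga
They lie at chr16:77598940-77598961, chr16:77599672-77599693 and chr16:77646279-77646300 on the plus strand, inside the host. No pair of the 3 shares a seed. The host had 4541, 4799, 6609 and 7288 units in Dp(16)1Yey/+ mice and 4149, 4487, 3198 and 3203 in the littermates, which is a log2 fold change of 0.62 ± 0.20 (unadjusted p = 0.00964). All 4 Dp(16)1Yey/+ values were above all 4 littermate values, by a narrow margin for replicate 0. Mature miRNAs are not measured by these libraries, and their levels are not analysed here.

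Transcripts on either side of a promoter of the interval were both higher. Cct8 starts on the minus strand, and the long noncoding RNA gene B130034C11Rik starts on the plus strand a short distance upstream (chr16:87495999-87504033). The 250 bases before the RefSeq start of Cct8, chr16:87495870-87496119 (GRCm38.p6, minus strand), are given with the letters CCGGAAGT, a typical binding motif of ETS-family factors such as Gabpa, in capitals.
Cct8 promoter: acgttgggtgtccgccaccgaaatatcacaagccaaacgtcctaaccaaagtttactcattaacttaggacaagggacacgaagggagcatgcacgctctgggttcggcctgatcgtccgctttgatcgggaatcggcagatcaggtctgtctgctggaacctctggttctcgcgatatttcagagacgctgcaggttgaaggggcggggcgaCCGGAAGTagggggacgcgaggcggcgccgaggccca
B130034C11Rik had 146, 161, 176 and 184 units in Dp(16)1Yey/+ mice against 86.5, 119, 124 and 123 in the littermates, and its log2 fold change of 0.56 ± 0.18 stood beside 0.65 ± 0.14 for Cct8. CCGGAAGT, searched on both strands, is present in 7 of the 74 tested genes of the interval with a promoter in the table (9.46%), in 6.26% of 10834 other named tested genes, and in 2.88% of the 32851 promoters of this length searched. The match describes letters and was not tested as a binding site.

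Outside the interval, the smallest p-value was that of Cyp26b1, the enzyme that degrades retinoic acid (chr6:84571414-84593908). It had 115, 49.4, 87.8 and 92.6 units in Dp(16)1Yey replicates 0 to 3 and 183, 199.9, 339 and 400.4 in the littermates. Every Dp(16)1Yey/+ library was below every littermate library, as in 0.736% of all loci, and the log2 fold change was -1.68 ± 0.31 (unadjusted p = 2.12e-04, exact permutation p = 0.0286). DESeq2 gave an adjusted p of 0.008 and limma did not call the gene. The littermate pairs also differed from each other, replicates 2 and 3 being above replicates 0 and 1. In the wider retinoic acid pathway 3 of 16 tested genes were higher, with a median of -0.28 (-0.10 without littermate replicate 3). At an unadjusted p under 0.05 in limma, 1 was higher and 1 lower, beside 1.71% and 1.82% of all loci. Without Dp(16)1Yey replicate 1, 0 were higher and 2 lower, beside 1.18% and 0.825% of all loci. Aldh1a3, which makes retinoic acid, had 19.8, 47.0, 20.4 and 8.05 against 7.21, 12.9, 7.56 and 4.04 units (1.32 ± 0.49, unadjusted p = 0.021), and 0.93 ± 0.46 without Dp(16)1Yey replicate 1. This gene passed the filter only through the Dp(16)1Yey/+ values, so its direction is not independent of the filter. The carrier gene Crabp1 had -0.62 ± 0.50, the retinol uptake receptor gene Stra6 had -0.54 ± 0.30, and the nuclear receptor genes Rara and Rxrg had -0.43 ± 0.35 and -1.24 ± 1.06.

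Among the other genes with lower values, Lars2, the mitochondrial leucyl-tRNA synthetase, had 875, 2304, 2584 and 1937 units against 3380.3, 4142, 6765 and 3745 (-1.28 ± 0.33). Dp(16)1Yey replicate 0 was far below the others of its group. Ace, the angiotensin-converting enzyme, had 73.2, 28.2, 41.8 and 50.3 against 86.5, 75.2, 153 and 139 (-1.23 ± 0.32), and Pla2g7, which inactivates platelet-activating factor, had 179, 99.9, 227 and 119.8 against 249, 278, 290.4 and 281 (-0.88 ± 0.24). In each of the 3 all Dp(16)1Yey/+ values were under all littermate values. The genes of this paragraph were chosen by the smallest p in the same libraries, so such separation is not independent evidence. Barhl2, a homeobox factor of developing forebrain and spinal cord neurons, had -1.41 ± 0.38 at 10.6 to 65.7 units, and here Dp(16)1Yey replicate 2 overlapped littermate replicate 1. Strip2, of a phosphatase and kinase complex, had 55.4, 61.1, 99.0 and 52.3 against 93.8, 111, 275 and 294 (-1.38 ± 0.38), again with replicate 2 overlapping the littermates. Pamr1 (-1.75 ± 0.39), Tmem190 (-1.18 ± 0.30), the tektin gene Tekt5 (-1.30 ± 0.37) and the tubulin-binding Tppp3 (-0.77 ± 0.23) were measured at low levels, as were the RIKEN transcripts 5830416P10Rik (-1.15 ± 0.25) and, higher, 4921511H03Rik (-0.95 ± 0.25).

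Genes with higher values outside the interval were led by Ccdc129, a coiled-coil protein gene (chr6:55836895-55978735), with 595, 736, 603 and 899 units against 390.5, 406, 396 and 361 and a log2 fold change of 0.85 ± 0.17 (unadjusted p = 4.16e-04). It passed in DESeq2 (adjusted p = 0.037). Neurod6, a transcription factor of young pyramidal neurons, lies close to Ccdc129 on chromosome 6 (chr6:55677822-55681263) and had 13868, 20161, 10971 and 15340.3 against 8965, 9012, 10816 and 10295 (0.60 ± 0.19). Dp(16)1Yey replicate 2 was just above littermate replicate 2, and both genes had their littermate values within a narrower range than their Dp(16)1Yey/+ values. Epha3, an ephrin receptor of axon guidance on chromosome 16 proximal to the interval (chr16:63543534-63864175), had 4303, 7338, 4444 and 5334 against 3085, 3137, 3481 and 3442 (0.67 ± 0.18). Robo2, an axon guidance receptor nearer to the interval and also outside it, had 3238, 2576, 891 and 2619.6 against 1193, 1254, 2849.7 and 2852 (0.17 ± 0.42), with the littermate pairs far apart. A second locus that the transcript map gives to Robo2, XLOC_021477, had 969, 1435, 364 and 1555 units against 482, 473, 778 and 740.2, a fold change of 0.65 ± 0.40 that lay between 0.40 and 1.10 with a library left out. At both loci Dp(16)1Yey replicate 2 was below all littermates. Cdk6, a kinase of the cell cycle, had 276, 255, 201 and 263 against 163, 163, 132 and 178 (0.64 ± 0.18). Ermn, a cytoskeletal protein of oligodendrocytes, had 68.2, 67.0, 49.0 and 59.4 against 31.9, 30.7, 42.1 and 29.3 units (0.85 ± 0.21), although the oligodendrocyte list as a whole was lower. Tmem74, a regulator of autophagy, had 0.41 ± 0.14, the mitochondrial aspartate and glutamate carrier gene Slc25a13 had 0.73 ± 0.25, and the phospholipase gene Pla2g4a and the G protein gene Gna14 had 0.78 ± 0.26 and 1.14 ± 0.35. The noncoding or uncharacterised loci 2810405F15Rik, A730046J19Rik and B230119M05Rik had 1.03 ± 0.28, 1.06 ± 0.30 and 1.01 ± 0.31. The 12 genes of this paragraph other than Robo2 had every Dp(16)1Yey/+ library above every littermate library (exact permutation p = 0.0286 for each), a feature shared by 1.72% of all loci. These 12 were chosen by the smallest p in the same libraries, so their separation is not independent evidence.

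**Figure D4:**
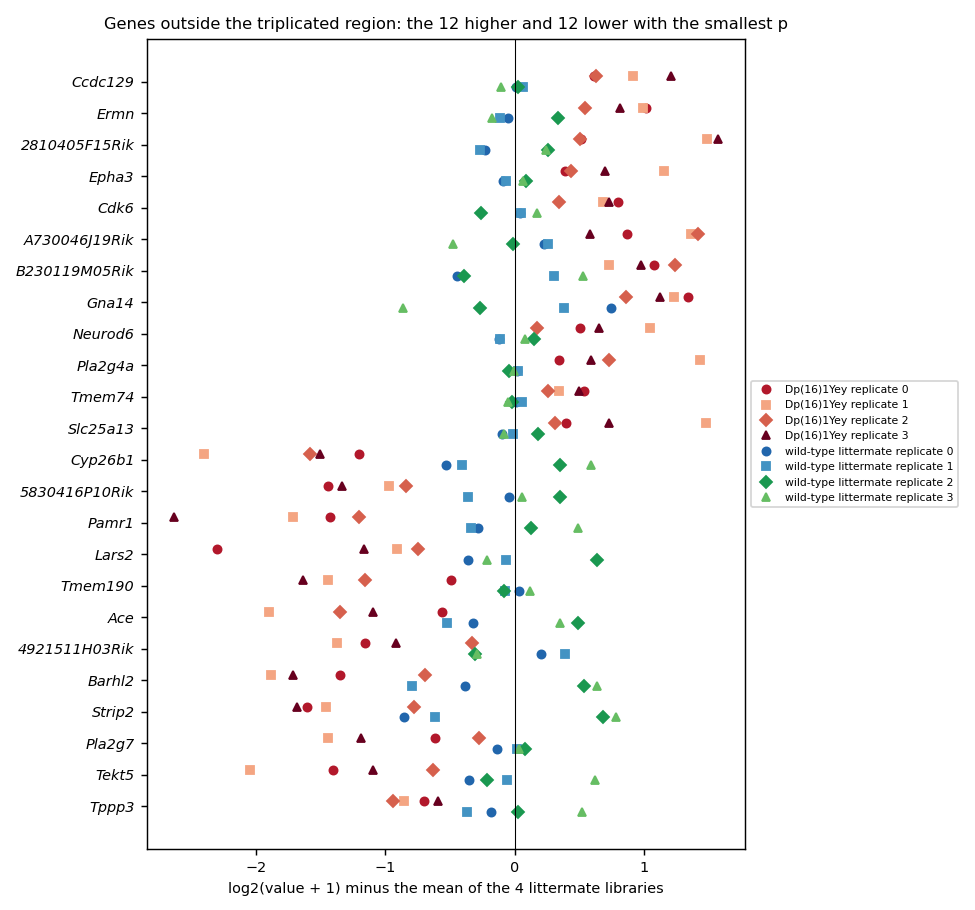
Log2(value + 1) in each library, minus the mean of the 4 littermate libraries, for the 12 named genes with higher and the 12 with lower values outside the triplicated region that have the smallest p. In Cyp26b1 the Dp(16)1Yey/+ libraries (red) all lie left of the littermates, of which replicates 0 and 1 (blue) lie left of replicates 2 and 3 (green).

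Synaptic genes were lower on average, and the amount depended on which libraries were set against each other. In bulk RNA, fewer cells of a type and less RNA per cell cannot be told apart. Among 21 genes of presynaptic release 1 was higher and 20 were lower, with a median log2 fold change of -0.41 beside -0.05 for all named genes outside the interval. Of the 21, Otof alone reached an unadjusted p under 0.05, beside 1.82% of all loci, and 0 did without Dp(16)1Yey replicate 1 in limma. Of 22 postsynaptic density genes 19 were lower, with a median of -0.42 and 0 at an unadjusted p under 0.05 in limma. The per-library mean of the presynaptic genes, relative to the littermate mean, was 0.30, -0.96, -0.71 and -0.54 in Dp(16)1Yey replicates 0 to 3 and -0.44, -0.53, 0.43 and 0.54 in littermate replicates 0 to 3. Dp(16)1Yey replicate 0 was thus near littermate replicates 2 and 3, replicates 2 and 3 were near littermate replicates 0 and 1, and replicate 1 was lowest. Without replicate 1 the presynaptic median was -0.30 and the postsynaptic one -0.23, and without replicate 0 they were -0.70 and -0.68. Without littermate replicate 3 they were -0.26 and -0.27.

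Inhibitory and excitatory receptors gave similar values. All 15 genes of GABA-A receptors and chloride transport were lower (median -0.47), 1 of them at an unadjusted p under 0.05, beside 1.82% of all loci. Without Dp(16)1Yey replicate 1 the median was -0.25, 14 of 15 were lower and 0 reached that p in limma. That gene was Gabra5, a subunit of extrasynaptic GABA-A receptors that is rich in hippocampus, with 1083, 308, 538 and 502 units in Dp(16)1Yey/+ mice and 743, 679.8, 1408 and 1254 in the littermates (-0.83 ± 0.36, unadjusted p = 0.0414, exact permutation p = 0.143). Replicate 0 lay between the littermate pairs and replicates 1 to 3 lay below all littermates. Slc12a5, the chloride extruder KCC2, had 407, 106, 98.0 and 231 against 151, 155, 901 and 897 (-1.07 ± 0.66), and its littermate pairs were further apart than the groups. Of 15 ionotropic glutamate receptor genes 12 were lower (median -0.34, 0 at an unadjusted p under 0.05 in limma), and the median was -0.62 without Dp(16)1Yey replicate 0 and -0.18 without replicate 1. Grin1, the obligatory NMDA receptor subunit, had -0.73 ± 0.36, Grin2b had -0.46 ± 0.30, and Gria2, an AMPA receptor subunit, was on the other side at 0.29 ± 0.17. Camk2a and Camk2b, kinases of plasticity, had -0.96 ± 0.52 and -0.81 ± 0.41.

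Of the 12 synaptic genes that the study singles out, which it chose on these libraries, all 12 were lower, with a median of -0.92, and 3 reached an unadjusted p under 0.05, beside 1.82% of all loci. With Dp(16)1Yey replicate 1 left out it was 1 gene, beside 0.825% of all loci. The median was -1.34 without littermate replicate 0 and -0.57 without littermate replicate 3. Their direction is not independent evidence. Htr2c, a serotonin receptor abundant in choroid plexus, was the only one without overlap, with 154, 81.1, 141 and 47.3 units against 161, 163, 287 and 259.9 (-1.13 ± 0.36, unadjusted p = 0.00906). Otof, a calcium sensor of vesicle release, had 66.3, 14.1, 36.7 and 29.2 against 55.6, 36.6, 129.5 and 148 (-1.29 ± 0.51). Clstn3, a synaptic organiser, had 1363, 443, 538 and 592 against 837, 713, 1732 and 1733 (-0.80 ± 0.38), Rph3a, a vesicle protein, had 794, 241, 186 and 296 against 337, 309.7, 1001 and 1139 (-0.87 ± 0.51), Nrgn, a postsynaptic calmodulin-binding protein, had -1.46 ± 0.87, and Dnm1, the GTPase of vesicle endocytosis, had -0.94 ± 0.59. In Clstn3, Rph3a, Nrgn and Dnm1 littermate replicates 2 and 3 were highest, Dp(16)1Yey replicate 0 came next, and littermate replicates 0 and 1 lay among or just above Dp(16)1Yey replicates 1 to 3.

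Several of the other genes are abundant in the striatum. Adora2a, an adenosine receptor of striatal neurons, had 43.5, 27.0, 21.4 and 11.1 units in Dp(16)1Yey/+ mice against 18.5, 25.7, 89.6 and 119 in the littermates (-1.02 ± 0.58). Penk and Pdyn, opioid precursors, had 50.4, 32.9, 19.4 and 29.2 against 17.5, 27.7, 145 and 163 (-0.89 ± 0.65) and 23.7, 8.23, 7.14 and 7.04 against 2.06, 10.9, 88.5 and 93.0 (-1.09 ± 0.95). Tac1, the substance P precursor, had 15.8, 107, 8.16 and 16.1 against 1.03, 3.96, 233 and 196 (-0.18 ± 1.43), and Lypd1, a modulator of nicotinic receptors, had -0.45 ± 0.89. In each, littermate replicates 2 and 3 stood above the other 6 libraries. Over 21 striatal projection neuron genes the median fold change was -0.34, with 0 genes at an unadjusted p under 0.05 in limma in either direction, and the per-library means were -0.08, 0.50, -1.25 and -0.54 in Dp(16)1Yey replicates 0 to 3 and -1.49, -1.31, 1.36 and 1.44 in littermate replicates 0 to 3. Without littermate replicate 2 or 3 the median was 0.03 or 0.04, without littermate replicate 0 or 1 it was -0.83 or -0.86, and it was -0.68 without Dp(16)1Yey replicate 1 and -0.17 without replicate 2. The summed level of these genes ranged from 5952 to 11004 units in Dp(16)1Yey/+ mice and from 5436 to 12901 in the littermates. The part of striatal RNA in the synaptic differences was not tested.

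**Figure D5:**
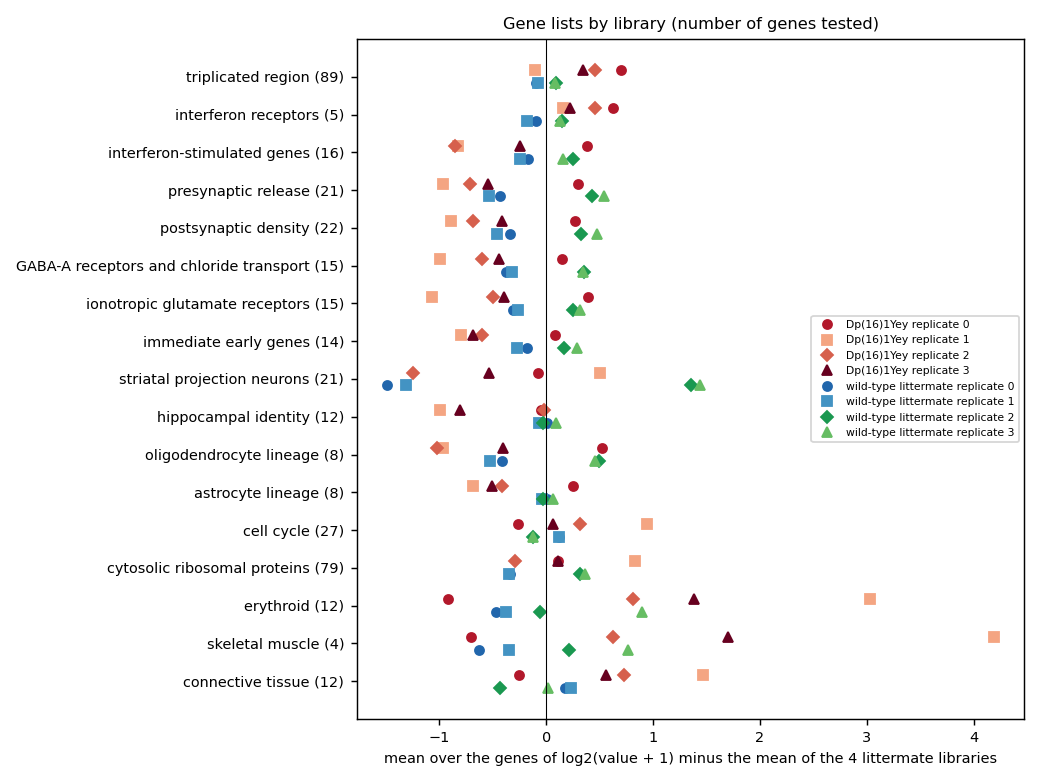
Mean over the genes of each list of log2(value + 1) minus the littermate mean, for each Dp(16)1Yey/+ library (red, upper row of each list) and each littermate library (blue and green, lower row), with the number of genes tested in brackets. The littermate pair means lie on opposite sides of 0 by construction, and the gap between them differs by list. For littermate replicates 0 and 1, and 2 and 3, they are -1.40 and 1.40 in the striatal list. They are -0.49 and 0.49 in presynaptic release and -0.03 and 0.03 in hippocampal identity. For erythroid, muscle and connective tissue lists Dp(16)1Yey replicate 1 lies furthest right.

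Immediate early genes, which neuronal activity induces, had a median of -0.34 (2 of 14 higher), and 2 were lower at an unadjusted p under 0.05, beside 1.82% of all loci. Without Dp(16)1Yey replicate 1 0 reached that p in limma, and the median was -0.16 without littermate replicate 3. Egr3 had 32.6, 9.4, 5.1 and 20.1 units against 21.6, 24.7, 88.5 and 94.0 (-1.69 ± 0.61), and Npas4 had 11.9, 1.18, 2.04 and 5.03 against 9.27, 6.93, 21.6 and 25.3 (-1.64 ± 0.60). Npas4 passed the filter only through the littermate values, so its direction is not independent of the filter. Arc, which reaches dendrites and remodels synapses, had 40.5, 42.3, 68.4 and 20.1 against 65.9, 54.4, 57.2 and 72.8 (-0.65 ± 0.32, unadjusted p = 0.0659). Genes of hippocampal identity had a median of -0.42 (1 of 12 higher, 1 lower at an unadjusted p under 0.05, the endoplasmic reticulum gene Wfs1 at -0.72 ± 0.31, beside 1.82% of all loci, and 0 in limma without Dp(16)1Yey replicate 1), and their per-library means were -0.05, -0.997, -0.02 and -0.80 in Dp(16)1Yey replicates 0 to 3 and 0.01, -0.07, -0.03 and 0.09 in littermate replicates 0 to 3. Here the list means of the littermates were alike and those of Dp(16)1Yey replicates 1 and 3 stood below them, whereas those of replicates 0 and 2 did not. Single genes and the summed level differed between the littermate pairs. In littermate replicates 0 to 3 the summed level was 21223, 20196, 15019 and 15581 units, and Zbtb20 had 7734, 7398, 2254 and 2546. Prox1, the granule cell factor, had 572, 161, 712 and 248 against 856, 810.5, 505 and 553 (-0.89 ± 0.42), and Nrp2, a semaphorin receptor, had 6586, 1172, 9712 and 2216 against 8134, 7677, 5619 and 5724 (-0.90 ± 0.54). Neocortical projection neuron genes had a median of 0.04, with 8 of 15 higher and a range of -0.21 to 0.20 with Dp(16)1Yey replicate 0 or 2 left out.

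Glial and vascular lists had medians below 0. The oligodendrocyte lineage list, which includes Olig1 and Olig2 of the interval, had 8 of 8 genes lower (median -0.52). Cspg4 and Sox10, of oligodendrocyte precursors, had -0.60 ± 0.30 and -0.53 ± 0.27. The astrocyte list had a median of -0.29 (6 of 8 lower), with Gfap at 275, 11.8, 170.4 and 50.3 against 315, 328, 159.8 and 167 units (-1.63 ± 0.77). Endothelial and pericyte genes had -0.32 (10 of 12 lower), Cajal-Retzius cell genes -0.32 (8 of 8 lower), choroid plexus genes -0.31 (8 of 10 lower), interneuron genes -0.21 (14 of 17 lower) and microglial genes -0.12 (9 of 11 lower). Apart from Htr2c in the choroid plexus list, 0 genes of these lists reached an unadjusted p under 0.05 in limma, where 3.53% of all loci did. Several of these medians rested on single libraries. Left out in turn, Dp(16)1Yey replicates 0 and 3 gave -0.52 and -0.15 for endothelium and pericytes, and Dp(16)1Yey replicates 2 and 3 gave -0.50 and -0.16 for Cajal-Retzius cells. The choroid plexus median was -0.71 without littermate replicate 2, -0.05 without littermate replicate 1 and -0.57 without Dp(16)1Yey replicate 1. The interneuron median was -0.45 without Dp(16)1Yey replicate 0 and -0.01 without littermate replicate 2, and the microglial one -0.19 and -0.04 without Dp(16)1Yey replicates 1 and 3. Without Dp(16)1Yey replicate 2 the oligodendrocyte and astrocyte medians were -0.27 and -0.13.

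Lists of dividing cells and of tissues other than brain had medians above 0, and their highest values came from the library labelled Dp(16)1Yey replicate 1. Of 27 cell cycle genes 26 were higher, with a median of 0.27 and 0 at an unadjusted p under 0.05 in limma. Mki67, a marker of proliferation, had 6771, 20480, 13343 and 11081 units against 11380.2, 11619.8, 6479.8 and 6676 (0.46 ± 0.32), and the median of the list was 0.02 without replicate 1. Of 12 erythroid genes 11 were higher (median 1.23) and 4 reached an unadjusted p under 0.05, beside 1.71% of all loci, among them Slc4a1, the anion exchanger of red cells, with 60.3, 682, 162 and 246 against 48.4, 42.6, 78.8 and 187 (1.43 ± 0.65). Replicate 1 exceeded every other library in each of the 4 genes, the median was 0.68 without it, and 0 of the 12 then reached that p in limma. The summed erythroid level was 6364 to 57459 units in Dp(16)1Yey/+ mice and 4939 to 17875 in the littermates. Connective tissue genes had a median of 0.51 (10 of 12 higher, 5 at an unadjusted p under 0.05, beside 1.71% of all loci). Without replicate 1 the median was 0.17 and 1 of 12 reached that p, beside 1.18% of all loci. Col1a1, of bone and skin collagen, had 20.8, 688, 187 and 277 against 20.6, 30.7, 33.5 and 134 units. The 4 muscle genes that passed the filter had 1.45, and 0.41 without replicate 1, over the 3 that still passed. Among the 4, Myh3 and Mylpf passed only through Dp(16)1Yey/+ values, so their direction is not independent of the filter.

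Partners of dosage-sensitive subunits were examined in the complexes that the interval touches. In the chaperonin CCT, Cct8 (from 3 copies) had 0.65, whereas the other 7 subunits had between 0.05 and 0.18, and the list median of 0.14 was 0.01 without replicate 1. In ATP synthase, Atp5j and Atp5o had 0.61 and 0.56, and the list of 15 had a median of 0.14, which was -0.06 without replicate 1. In CAF-1, Chaf1b had 0.59, Chaf1a -0.03 ± 0.16 and Rbbp4 0.18 ± 0.19. In purine synthesis, Gart had 0.35 and the other 5 genes had -0.04 to 0.28. Clathrin endocytosis genes had a median of -0.25 (18 of 22 lower), calcineurin and NFAT genes -0.09, genes of amyloid precursor processing -0.20, GIRK channel genes -0.36, oxidative stress genes 0.07 and protein folding genes 0.0009. Without replicate 1 these were -0.17, -0.06, -0.13, -0.05, -0.06 and -0.04 in the same order. Without replicate 0 the clathrin median was -0.43 and that of amyloid precursor processing -0.36, which was -0.08 without replicate 3. Genes for cytosolic ribosomal proteins were higher in 75 of 79 cases by a small amount (median 0.21, 0 at an unadjusted p under 0.05 in limma), with per-library means of 0.11, 0.83, -0.29 and 0.11 in Dp(16)1Yey replicates 0 to 3 and -0.33, -0.34, 0.32 and 0.36 in littermate replicates 0 to 3. Without replicate 1 the median was -0.02 and 32 of 79 were higher. Respiratory chain genes (0.09, 41 of 56 higher) and proteasome genes (0.10, 25 of 35 higher) had medians of -0.10 and -0.05 without it. Hedgehog pathway genes had -0.02 and neural progenitor genes 0.0057.

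At the level of isoforms, 60652 assembled transcripts were tested and 13 passed an adjusted p of 0.05 in limma (0.0214%), 7 higher and 6 lower, with 0 from the interval. The isoform values are shares of a locus that the authors' software estimated, and a share can reach 0 where the fragments do not tell transcripts apart. All 13 belong to loci with several transcripts, and 11 of them were below 1 unit in all 4 libraries of one group and at least 10 in all 4 of the other. These 11 passed the filter only through the group where they were high, so their p-values are not independent of the filter. With the replicate block, or at a mean of at least 100, 0 isoforms passed the threshold, and 1 did with littermate pairs averaged. An isoform of Rpgrip1l, a ciliary gene, had 252, 231, 154 and 181 units in Dp(16)1Yey/+ mice and 0.0811, 0.331, 0.0539 and 0.129 in the littermates (adjusted p = 7.08e-04 in limma), while the gene total was 782 ± 86.6 and 732 ± 16.9 units (mean ± SD, n = 4). An isoform of Jade1, a histone acetylation scaffold, was listed at 0 in all Dp(16)1Yey/+ libraries and had 251, 72.5, 209.7 and 178 units in the littermates (adjusted p = 0.00607 in limma), with gene totals of 848 ± 179 and 681 ± 46.6. An isoform of Acvr1c, an activin-type receptor, had 169, 103, 222 and 72.2 against 0.0487, 0.0501, 0.0439 and 0.0574 units (adjusted p = 0.00607 in limma). Others with higher values came from Tmem229b, Fbf1, Hdac6, Ube4a and Sult4a1, and others with lower values from Chd5, a chromatin remodeller of neurons, Ptbp3, a splicing repressor, Fbxw7, which targets Notch and Myc for degradation, the locus of Rab43 and Isy1, and Ccdc148. Of the 13 genes 0 reached an unadjusted p under 0.05 at the gene level in limma.

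Isoforms of the interval were mostly higher. Of 284 tested isoforms 225 were higher, with a median log2 fold change of 0.50 beside 0.03 for all isoforms, and 71 were higher and 4 lower at an unadjusted p under 0.05 (1.71% and 1.77% of all isoforms, 3.48% together). Taking the isoform with the highest mean of each gene, 74 of 88 were higher, 31 of them at an unadjusted p under 0.05.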

How the data were processed

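The labels name the molecule as polyA RNA, whereas the library kit they and the methods name is one for stranded total RNA. Per the methods, the authors mapped reads to mm10 with TopHat and Bowtie, merged assemblies with Cuffmerge and quantified loci and isoforms with Cuffquant. Tool versions and the strand setting are not given in the sources used here, so reads of overlapping genes may be shared. The deposited values are a signal, fragments of a locus (or an estimated share per isoform) divided by 1 size factor per library, and whole fragments were recovered from the gene table within 0.05 fragment.

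Loci were named through the deposited transcript map, with coordinates from GENCODE vM21 (GRCm38). Rows whose 8 values averaged at least 10 were tested as log2(value + 1) with limma 3.58.1 (R 4.3.3, moderated test with trend, no covariate) and Benjamini-Hochberg adjustment. The gene test was checked on simulated data in which all libraries were drawn independently. That check held no close littermate pairs like those seen here, so it does not bear on their effect on the p-values. Single genes were tested with two-sided exact permutation tests (SciPy 1.17.1). edgeR 4.0.16 and DESeq2 1.42.0, run on recovered fragments, were alternatives, beside other pseudocounts, filters, size factors, a replicate block, averaged littermate pairs and each library left out.

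The genes named are the ends of the interval, Dyrk1a, the 12 genes with the smallest p and the 6 lowest fold changes in it, the 12 with the smallest p in each direction outside it, up to 6 genes per list by p with defining members, the genes the study names, and the isoforms with the smallest p. Other genes of the interval were named by role after their values were seen. The members and lists, the role groups among them, were chosen with earlier results of these data known. The 6 libraries of the other line were not used here. The values of 1 gene that the rule would name are not reported here.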

Additional observations from a re-analysis of the deposited data

Results flagged for a closer look

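Within a group of 4 libraries, 1 library stood far from the other 3 by Dixon's test for 8 of the values reported, and chance does so in about 1 of 20 groups. N6amt1 had 371 units in Dp(16)1Yey replicate 2, against 304 to 310.0 in the others. Brwd1 was lowest in the library labelled Dp(16)1Yey replicate 1, at 5124 units against 6034 to 6166. Pdyn had 23.7 units in Dp(16)1Yey replicate 0, against 7.04 to 8.23.

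The other 5 values are isoforms in the group where they were near 0, so the gaps are of small size. In Dp(16)1Yey/+ mice the isoform of Chd5 had 0.337 units in replicate 0, that of Ptbp3 had 0.00665 in replicate 3, that of Fbxw7 had 0.0154 in replicate 1, and that of the locus of Rab43 and Isy1 had 0.0538 in replicate 0. In the littermates the isoform of Sult4a1 had 2.02 units in replicate 3, against 0.0323 to 0.0972 in the others.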

How the results depend on the processing

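The median of the triplicated region lay between 0.35 and 0.55 under all alternatives, and its count at an unadjusted p under 0.05 between 27 and 55. The gene count past the threshold was 8 in DESeq2 and 0 to 3 with each library left out (3 without Dp(16)1Yey replicate 1, all unnamed loci at the proximal end of the region). The count at an unadjusted p under 0.05 was 2031 without a filter, 490 at a mean of at least 100, 271 with littermate pairs averaged, and 721 (without Dp(16)1Yey replicate 1) to 4567 (without Dp(16)1Yey replicate 0) with a library left out. Isoforms past the threshold numbered 45 without a filter, 0 at a mean of at least 100, 1 with pairs averaged and 4 to 43 with a library left out. The replicate numbers do not pair the libraries (deviations of same-numbered libraries correlated at -0.58, -0.03, -0.56 and -0.32). With the replicate block 0 genes and 0 isoforms passed, and 863 genes, 33 of them in the region, stood at an unadjusted p under 0.05.

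Fold changes of opposite sign were -0.0271 for Tiam1 and -0.0019 for Adamts5 with median-ratio size factors, and 0.03 for Tac1 with a pseudocount of 0.1. With a library left out, ranges that crossed 0 were -0.48 to 0.21 for App, -0.42 to 0.29 for Dopey2, -0.44 to 0.13 for Ets2, -0.24 to 0.15 for Ncam2, -0.29 to 0.25 for Tiam1, -0.22 to 0.17 for Adamts5, -0.0455 to 0.58 for Robo2, -1.41 to 0.88 for Tac1 and -1.27 to 0.22 for Lypd1. The cause was not tested.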
